A study of Mus musculus with 16 samples.

Results

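The 35 genes described here serve amino acid supply and its stress response in mouse CD4+ T cells. They fall into 3 classes: 20 cytosolic tRNA synthetases, 8 stress genes around the transcription factor ATF4, and 7 enzymes of serine synthesis and one-carbon metabolism. Each gene was read by 1 probe set, a group of short array probes for one transcript, taken as the brightest on average over the 16 arrays among those with a single gene symbol. By this rule 34 of 35 genes were measured (19, 8 and 7 by class), out of 18193 genes named on the array. Dars had no probe set with that single symbol in the table used, and Mars was found under its later symbol Mars1. All 34 passed the level minimum of log2 6 on at least 2 arrays, which 13007 genes passed in all.

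The arrays came from sorted naive (CD44-, CD62L+) CD4+ T cells, activated for 3 days through CD3 and CD28. STAT3-deficient cells carried CD4 Cre with STAT3floxed alleles, and WT cells carried the STAT3floxed alleles without Cre. STAT3 is the transcription factor downstream of the IL-6 receptor, and a CD4-driven Cre acts in all cells that have expressed CD4. Each genotype was cultured in IL-6 with TGFb, in IL-6, in TGFb or in medium alone, with IL-6 at 10 ug/ml and TGFb at 2.5 ug/ml as labelled. Each of the 8 groups held 2 arrays, numbered replicate 1 and 2, and nothing states from which mice or cultures they came. Sex-linked genes, given below, differ between the numbers in every group, so the 2 arrays of a group did not come from a single RNA sample. The p-values measure the spread between these samples. In bulk RNA, fewer cells of a type and less RNA per cell cannot be told apart.

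Aminoacyl-tRNA synthetases join each amino acid to its tRNA and so feed translation. When uncharged tRNA or misfolded protein accumulates, kinases phosphorylate eIF2alpha, general translation slows, and ATF4 is made. ATF4 switches on genes that restore amino acids, among them Asns, many synthetases and the serine pathway, and proliferating T cells draw on serine for nucleotides. In that pathway Phgdh, Psat1 and Psph make serine from a glycolytic intermediate, and Shmt1, Shmt2, Mthfd2 and Mthfd1l pass its carbon into the folate cycle.

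ATF4 is known to bind, with C/EBP partners, a composite element that can be written TGATGNAA, where N is any base. This motif was searched on both strands in promoter windows of RefSeq (build GRCm38.p6) that reach from 250 bases before to 50 bases after a gene start. Of the measured members 27 had such windows (29 windows in all). Cars, Hars, Lars, Nars, Rars, Vars and Wars were not matched. The motif stood in 9 of 29 member windows (31%), against 3.97% of all 32851 promoter windows. By class it was found in 5 of 12 synthetase windows, 4 of 9 stress gene windows and 0 of 8 windows of serine and one-carbon genes. A match is a description of letters and not a measured site. The stretches upstream of the start that hold it are shown so that the members with and without the motif can be compared, with the motif in capitals and each sequence read 5′ to 3′ along the gene's strand.
Asns, chr6:7693210-7693252, minus strand: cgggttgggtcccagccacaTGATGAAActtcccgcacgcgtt
Chac1, chr2:119351029-119351076, plus strand: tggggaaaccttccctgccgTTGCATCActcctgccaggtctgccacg
Atf3, chr1:191183416-191183463, minus strand: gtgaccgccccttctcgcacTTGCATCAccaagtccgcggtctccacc
Aars, chr8:111033710-111033757, plus strand: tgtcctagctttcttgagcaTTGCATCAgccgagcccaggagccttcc
Tars, chr15:11399659-11399693, minus strand: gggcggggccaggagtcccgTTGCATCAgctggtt
Gars, chr6:55037951-55037998, plus strand: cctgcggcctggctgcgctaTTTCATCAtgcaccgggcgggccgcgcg
In Chac1, Atf3, Aars and Tars the same 8 letters, TTGCATCA, recur at 193, 110, 112 and 15 bases before the start. On either strand this form stood in 6 of 29 member windows, against 0.895% of all windows. In Trib3, Yars and Iars the motif lies after the start.

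A pair of further motifs was counted in the same windows. The STAT-type letters TTCNNNGAA stood in 3 of 29 member windows (Aars, Kars and Shmt2), against 8.3% of all windows. The E-box CACGTG, which MYC can bind, stood in 4 (Farsb, Aars, Iars and Tars), all synthetases, against 7.15%. Phgdh and Mthfd2, the 2 members called in more than 1 genotype or cytokine comparison below, held none of the 3 motifs in this window, and the 100 bases before their starts are shown for that reason.
Phgdh, chr3:98339970-98340069, minus strand: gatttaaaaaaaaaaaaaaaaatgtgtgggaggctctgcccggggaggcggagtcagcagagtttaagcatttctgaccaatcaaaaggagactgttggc
Mthfd2, chr6:83317605-83317704, minus strand: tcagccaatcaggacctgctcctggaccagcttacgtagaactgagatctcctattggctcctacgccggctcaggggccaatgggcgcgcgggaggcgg
No match says only that these letters are not in this window.

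Several facts of the arrays bear on all results. Stat3 itself, by its most intense probe set, read log2 8.40 at the lowest, 8.87 at the median and 10.46 at the highest over 8 STAT3-deficient arrays, against 10.22, 11.8 and 12.18 over 8 WT arrays. The 10.46 was read on STAT3-deficient TGFb replicate 2, and the 10.22 on WT medium replicate 1. The position of this probe set relative to the deleted part is not known here. All 9 measured T cell markers stood above log2 9 on every array, while the 2 CD8 T cell, 4 B cell and 5 myeloid markers stayed under log2 8. Of the 2 measured NK cell markers Ncr1 stayed under it and Klrd1 reached 12.8, and of 3 dendritic cell markers H2-Ab1 reached 11.3. The mean of the NK cell markers on an array was 5.63 to 7.86 over STAT3-deficient arrays and 5.23 to 9.17 over WT arrays. For the dendritic cell markers it was 6.01 to 7.45 and 6.08 to 7.81. Xist read 6.64 to 7.6 on the replicate 2 arrays and 11.91 to 13.21 on the replicate 1 arrays, and the Y-linked Eif2s3y read 9.84 to 10.98 on replicate 2 and 3.81 to 4.52 on replicate 1. The array labelled STAT3-deficient TGFb replicate 1 read the Th17 cytokine Il17a at 9.55, against 6.07 in its replicate 2, and over the 1000 most variable genes it correlated at 0.14 with that replicate 2 and at 0.39 with STAT3-deficient IL-6 with TGFb replicate 2. STAT3-deficient IL-6 with TGFb replicate 1 correlated at 0.57 with STAT3-deficient TGFb replicate 2 and at 0.53 with its own replicate 2. It read Il17a at 6.29, and its replicate 2 at 6.51. Both of these replicate 1 arrays are treated as doubted, the second on the weaker ground of its 2 similar correlations. Member calls and class medians resting on them are also given without both or for replicate 2 alone.

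**Figure D1:**
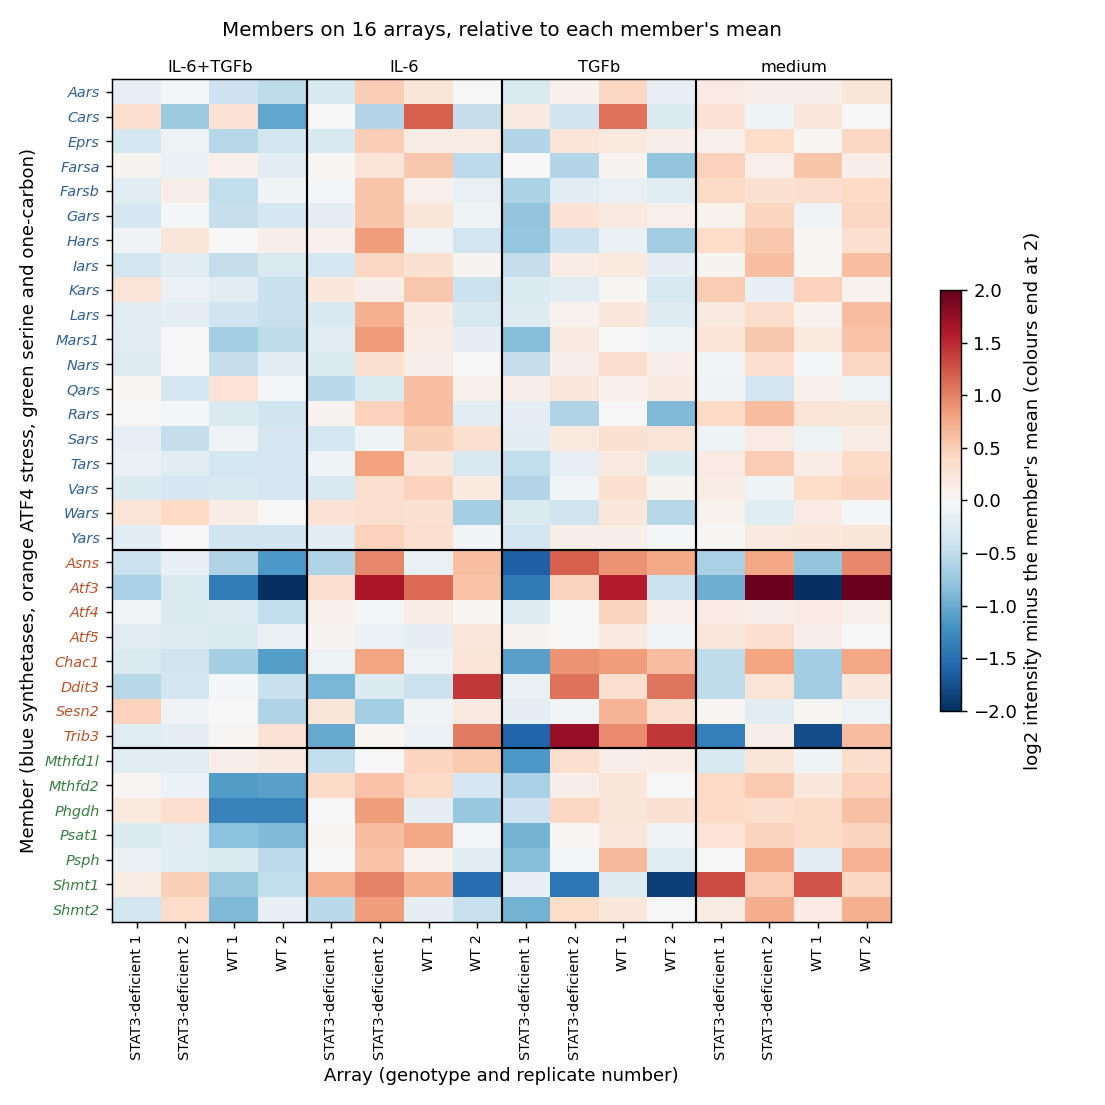
Log2 intensity of the 34 measured members (rows, grouped by class) on each of the 16 arrays (columns, grouped by condition, STAT3-deficient left of WT), minus the member's own mean over the arrays. Phgdh and Mthfd2 are darkest blue on the 2 WT arrays under IL-6 with TGFb, most synthetases are pale blue on the 4 arrays of that condition, and Asns, Atf3, Chac1, Ddit3 and Trib3 differ between the replicate numbers in medium.

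Among the serine and one-carbon genes, Phgdh, the first enzyme of serine synthesis, gave the clearest pattern. Under IL-6 with TGFb it read log2 12.26 and 12.41 on the STAT3-deficient arrays, against 10.74 and 10.73 on the WT arrays. The groups did not overlap, and both WT arrays lay below every other array of the series for this gene. With 2 arrays a group, values can lie apart without a difference between the groups. The share of all genes whose groups lay apart was not counted, here or for the genes below. Phgdh was 3.04-fold higher in STAT3-deficient cells, with a log2 change of 1.60 (SE 0.31, 2 arrays a group, limma adjusted p = 0.0329). The difference was 1.52 between the replicate 1 arrays and 1.68 between the replicate 2 arrays. Phgdh was the 1 member called higher here, where 0.208% of the 13007 genes were called higher and 0 members were called lower. The call was lost when any 1 of the 4 arrays was left out (log2 change 1.52 to 1.68, adjusted p = 0.18 to 0.242), and without both doubted arrays (1.68, adjusted p = 0.0933). Its 3 other probe sets gave changes of 1.26 to 1.55, all of the type that can cross-hybridise (_x_at), as is the one used.

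The other serine and one-carbon genes did not pass in that comparison. Mthfd2, the mitochondrial methylenetetrahydrofolate dehydrogenase, read 10.47 and 10.33 in STAT3-deficient cells, against 9.33 and 9.37 in WT cells. These groups were also apart, by 1.05 on the log2 scale, with an adjusted p of 0.142. Psat1, the transaminase after Phgdh, read 11.40 and 11.44, against 10.85 and 10.79 in WT cells (log2 change 0.60, adjusted p = 0.637). Of the 7 genes 6 were higher in STAT3-deficient cells, with a median of 0.60, against a median of 0.01 over all genes tested (0.89 for the 7 genes without both doubted arrays). Phgdh and Mthfd2 were the 2 members higher at an unadjusted p under 0.05, which 3.47% of genes reached. Mthfd1l, the mitochondrial formate-producing enzyme, went the other way at -0.36 (adjusted p = 0.846).

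In WT cells, 2 genes of this class fell with IL-6 and TGFb relative to medium, and 6 of 7 had a lower mean. Phgdh fell 3.53-fold (-1.82 on the log2 scale, SE 0.31, 2 arrays a group, limma adjusted p = 0.0105), to the values above, against 12.45 and 12.65 in WT medium. Mthfd2 fell 2.71-fold (log2 change -1.44, SE 0.28, adjusted p = 0.0213), against 10.66 and 10.91 in WT medium. For both genes the groups did not overlap, and the change was seen in replicate 1 (-1.72 and -1.33) and in replicate 2 (-1.92 and -1.55). These were the 2 members called lower in this comparison, in which 0.853% of all genes were called lower. Psat1 changed by -1.27 with an adjusted p of 0.0732, and passed when the replicate number was a block (adjusted p = 0.0499), a fit in which 2.09% of genes were called lower. Among the other members of the class, Shmt1 stood at -1.47, Shmt2 at -0.96, Psph, the phosphatase that releases serine, at -0.63, and Mthfd1l at 0.01 (adjusted p = 0.344, 0.398, 0.519 and 0.997). The NK cell marker Klrd1, a lectin receptor that activated T cells can also carry, differed in these same comparisons. It read 8.82 and 9.92 in STAT3-deficient cells under IL-6 with TGFb, against 12.06 and 12.85 in WT cells, and 5 and 6.38 in WT medium, and its part in the result was not tested. Each of the calls of Phgdh and Mthfd2 was lost without any 1 of the 4 arrays (adjusted p = 0.0585 to 0.0937 and 0.0976 to 0.161).

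In STAT3-deficient cells the same comparison called no member. Phgdh read 12.26 and 12.41 with IL-6 and TGFb, against 12.47 and 12.43 in medium, a log2 change of -0.12 (SE 0.31, adjusted p = 0.992). Mthfd2 read 10.47 and 10.33, against 10.85 and 10.98 (-0.51, SE 0.28, adjusted p = 0.925). All 7 serine and one-carbon genes leaned lower, with a median of -0.51, against -0.05 over all genes and -1.27 for the 7 genes in WT cells. That median of -0.51 was -0.43 without both doubted arrays and -0.21 without STAT3-deficient medium replicate 2. In limma 0.138% of genes were called in STAT3-deficient cells, and at an unadjusted p under 0.05, which 5.98% of genes reached, 1 member was lower (Atf5, -0.51, adjusted p = 0.684).

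**Figure D2:**
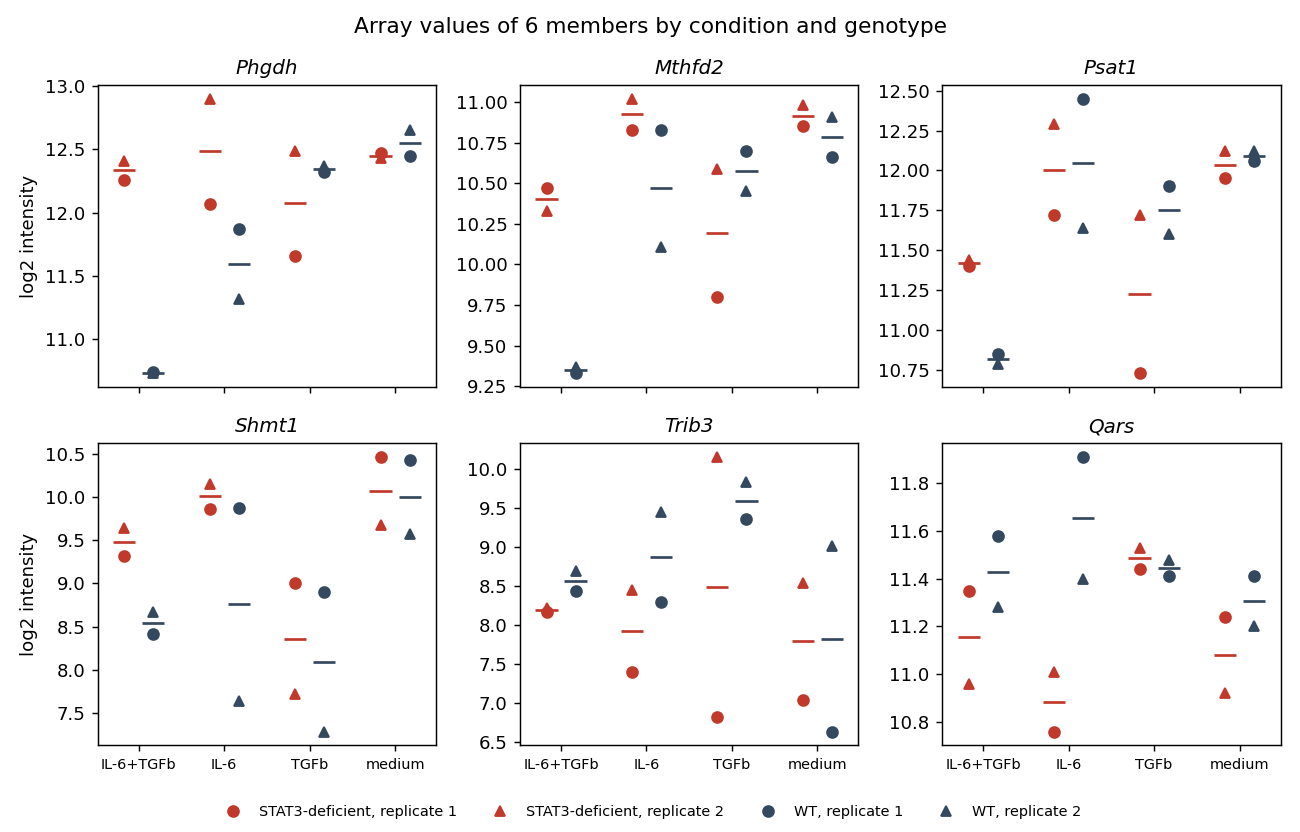
Log2 intensity (vertical axes) of 6 members on every array by condition, with STAT3-deficient in red left of WT in dark blue, replicate 1 as circles, replicate 2 as triangles and the mean of each group of 2 as a bar. Phgdh is lower in WT cells on all 4 arrays with IL-6 and stays between 12.07 and 12.90 in STAT3-deficient cells with IL-6, whereas Trib3 and Shmt1 lie far apart between replicate numbers in several groups.

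The design allows the effect of IL-6 to be averaged over cultures with and without TGFb. In STAT3-deficient cells Phgdh read 12.07, 12.90, 12.26 and 12.41 on the arrays with IL-6, against 11.66, 12.49, 12.47 and 12.43 on those without it. In WT cells it read 11.87, 11.32, 10.74 and 10.73 with IL-6, against 12.32, 12.37, 12.45 and 12.65 without it. The STAT3-deficient groups overlapped and the WT groups did not. The log2 change was 0.15 in STAT3-deficient cells (SE 0.22, n = 4 arrays per side, adjusted p = 0.994 in limma) and -1.28 in WT cells (SE 0.22, 2.44-fold lower, adjusted p = 0.0147 in limma). The WT call passed in 3 of the 8 fits that left out 1 of its arrays (adjusted p = 0.019 to 0.0753).

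The difference between these 2 effects is the interaction of genotype and IL-6. For Phgdh it was 1.43 (SE 0.31), and it did not pass (adjusted p = 0.0887), while it passed with the replicate block (adjusted p = 0.0382). Without both doubted arrays it was 1.26 (adjusted p = 0.216). Over all genes 0.354% were called in the interaction, 12.1% had an unadjusted p under 0.05, and 0.146% were called higher with the block. Mthfd2 had an interaction of 0.89 (SE 0.28, adjusted p = 0.235), and 6 of the 7 serine and one-carbon genes had a positive one, with a median of 0.70, against 0.00 over all genes. The median was 0.56 without both doubted arrays, 0.37 without STAT3-deficient TGFb replicate 1, 0.43 without STAT3-deficient IL-6 replicate 2 and 0.46 without WT IL-6 replicate 2. No member was called in the main interaction test, and Phgdh and Mthfd2 were the 2 members with an unadjusted p under 0.05.

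Phgdh was the 1 member called lower under IL-6 in WT cells, where 0.308% of genes were called lower. Mthfd2 read 10.83 and 10.11 under IL-6 and 9.33 and 9.37 under IL-6 with TGFb, against 10.66 and 10.91 in WT medium and 10.70 and 10.45 under TGFb. These sides overlapped through 1 array under IL-6, and the change was -0.77 (SE 0.20, adjusted p = 0.095). The next of the class, Shmt2, the mitochondrial serine hydroxymethyltransferase, stood at -0.70 (adjusted p = 0.466). Of the 7 genes 6 were lower, with a median of -0.49, against -0.04 over all genes. It was -0.76 without WT IL-6 replicate 1 and -0.75 without WT TGFb replicate 2. In STAT3-deficient cells 0 members and 0% of all genes were called in limma. At an unadjusted p under 0.05, which 4.44% of genes reached, Wars was higher there (0.53, adjusted p = 0.994), and the 7 serine and one-carbon genes had a median of 0.08, or -0.14 without both doubted arrays.

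**Figure D3:**
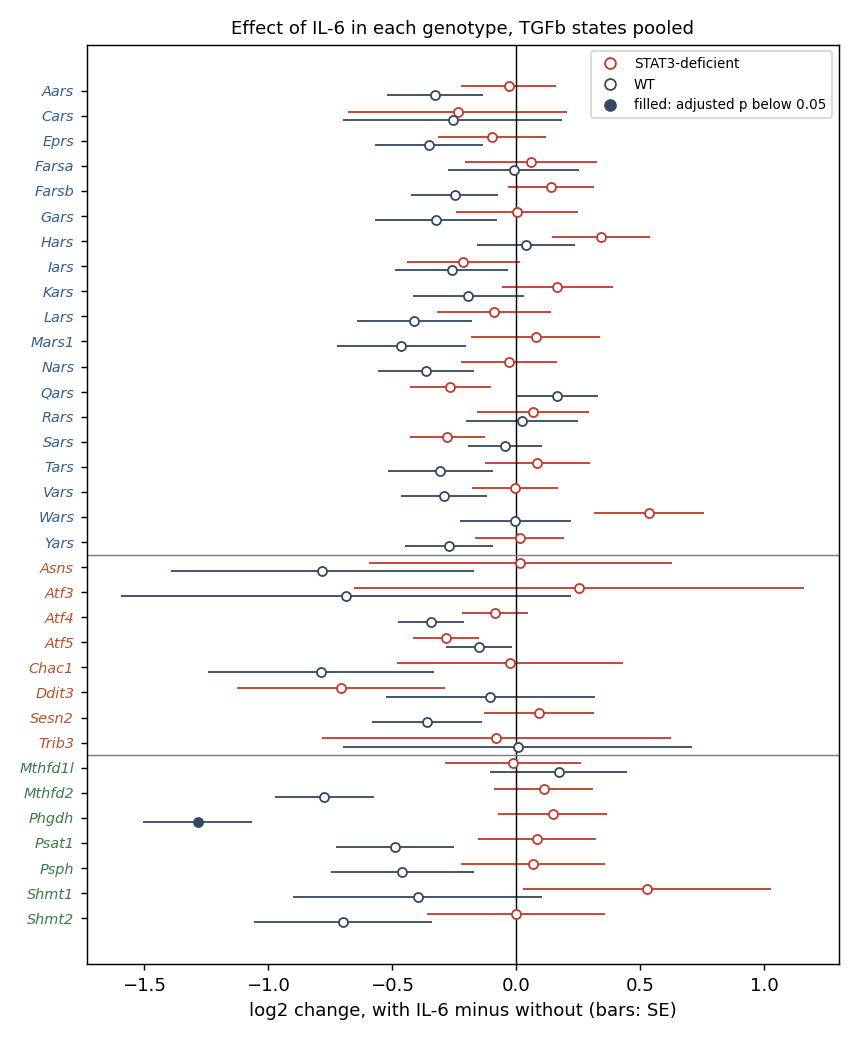
Log2 change with IL-6 minus without IL-6, averaged over cultures with and without TGFb, for each member in STAT3-deficient (red) and WT (dark blue) cells, with bars of 1 SE and filled points for an adjusted p below 0.05. Phgdh in WT cells, at -1.28, is the only filled point of the 68 drawn, and the other serine genes of WT cells except Mthfd1l lie left of 0.

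The genotypes were also compared within the other conditions. Under IL-6, Phgdh read 12.07 and 12.90 in STAT3-deficient cells, against 11.87 and 11.32 in WT cells (log2 change 0.89, SE 0.31, adjusted p = 0.134). No member was called under IL-6, although 3.29% of all genes were, and 4 members (Hars and Phgdh higher, Qars and Sars lower) had an unadjusted p under 0.05, compared with 21.7% of genes. With the replicate block, which called 9.08% of genes as lower, Qars alone passed. Qars, which charges tRNA with glutamine, read 10.76 and 11.01 in STAT3-deficient cells, against 11.91 and 11.40 in WT cells. The groups did not overlap, and the log2 change was -0.77 (SE 0.23, adjusted p = 0.0881, and 0.0372 with the block). Over the mean of all 4 of its probe sets the change was -0.40 (adjusted p = 0.206). Shmt1, the cytosolic serine hydroxymethyltransferase, differed by 1.25 under IL-6 (SE 0.71, adjusted p = 0.326), with 9.87 and 10.16 in STAT3-deficient cells, against 9.88 and 7.64 in WT cells. Its replicate 1 arrays were alike and 1 WT array was low.

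Under TGFb and in medium no gene of the array was called between the genotypes (0% of all genes in both), and no member had an unadjusted p under 0.05, which 0.684% and 0.131% of genes had. Under TGFb the 8 stress genes were all lower in STAT3-deficient cells, with a median of -0.72 and an adjusted p of 1 for each, but this rested on 1 doubted array. Trib3, a pseudokinase that ATF4 induces, read 6.81 and 10.15 in STAT3-deficient TGFb cells, against 9.35 and 9.83 in WT TGFb cells. Asns, the asparagine synthetase, read 8.08 and 10.90, against 10.60 and 10.47. The first value of each pair of STAT3-deficient arrays, from the doubted array, was the lowest of the 4, and the second lay above both WT values. Without that array the median of the stress genes was 0.06. It then rested on STAT3-deficient TGFb replicate 2, the STAT3-deficient array with the highest Stat3 value. In medium the 34 members differed by -0.36 (Vars) to 0.63 (Atf3), and the medians of the synthetases, stress genes and serine genes were -0.03, 0.06 and 0.00.

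Averaged over the 4 conditions, 0 members were called between the genotypes, where 0.969% of all genes were. At an unadjusted p under 0.05, which 15.9% of genes had, 6 members passed: Phgdh and Mthfd2 were higher, and Qars, Sars, Vars and Mthfd1l were lower, in STAT3-deficient cells. The largest differences by class were those of Qars (-0.31, adjusted p = 0.233) and Vars, the valine enzyme (-0.30, adjusted p = 0.274), Trib3 (-0.62) and Ddit3 (-0.35), and Shmt1 (0.63) and Phgdh (0.53, adjusted p = 0.136). Qars read 10.76, 11.12 and 11.53 (lowest, median, highest) over 8 STAT3-deficient arrays, against 11.20, 11.41 and 11.91 over 8 WT arrays. Ddit3, which encodes the stress factor CHOP, read 8.43, 9.03 and 10.44, against 8.65, 9.44 and 10.77. Both genes were lower at all 3 points of the range, though the genotypes overlapped. Shmt1 read 7.72, 9.66 and 10.47, against 7.28, 8.79 and 10.43. Phgdh read 11.66, 12.42 and 12.90, against 10.73, 12.09 and 12.65. Vars read 9.51, 9.92 and 10.43, against 9.77, 10.36 and 10.56, and Trib3 read 6.81, 8.19 and 10.15, against 6.63, 8.85 and 9.83. The genotypes overlapped for all 6 of these genes.

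TGFb was the one genotype or cytokine comparison that called synthetases without the block. Pooled over both genotypes and both IL-6 states, 18 of 19 were lower with TGFb, with a median of -0.35, against -0.01 over all genes. Farsb and Rars were called lower, and so were Psat1 and Mthfd2, giving 4 of 34 members, where 3.79% of all genes were called lower. With the replicate block the count was 7, with Hars, Mars1 and Shmt1 added (adjusted p = 0.0491, 0.0356 and 0.024), where 7.22% of genes were called lower. Hars and Mars1 charge tRNA with histidine and methionine. No member was called higher with TGFb.

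The values of the called synthetases overlapped between the 8 arrays with and the 8 arrays without TGFb. Farsb, the beta subunit of the phenylalanine enzyme, read 10.17, 10.57 and 10.92 (lowest, median, highest) with TGFb, against 10.64, 11.12 and 11.35 without it. It fell by 0.47 (log2 change -0.47, SE 0.12, 1.39-fold, adjusted p = 0.0364). Its partner subunit Farsa changed by -0.38 (adjusted p = 0.246). Rars, the arginine enzyme, read 10.25, 10.89 and 11.13 with TGFb, against 10.92, 11.46 and 11.75 without it (log2 change -0.60, SE 0.16, adjusted p = 0.0384). Both changes had the same sign within replicate 1 (-0.57 and -0.45) and within replicate 2 (-0.38 and -0.76).

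The 10 class I enzymes had a median of -0.36 and the 9 measured class II enzymes -0.34, the 2 folds into which synthetases divide. The 7 measured enzymes of the multisynthetase complex had a median of -0.37, and its 3 scaffold genes -0.28. The 15 measured mitochondrial synthetases, which serve the organelle's own translation, were all lower with a median of -0.28, and Sars2 (-0.37, adjusted p = 0.0371) and Yars2 (-0.55, adjusted p = 0.0494) were called. Of the synthetases not called, Hars, Tars, Vars and Mars1 came nearest (-0.43, -0.45, -0.38 and -0.55, adjusted p = 0.0777 to 0.0895), and Sars and Wars, the serine and tryptophan enzymes, were among the least changed (-0.12 and -0.05). The single cytosolic synthetase above 0 was Qars at 0.15 (adjusted p = 0.492).

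Of the serine genes, Psat1 fell by 0.74 with TGFb (log2 change -0.74, SE 0.17, 1.67-fold, adjusted p = 0.0202). It read 10.73, 11.42 and 11.90 with TGFb, against 11.64, 12.09 and 12.45 without it. Mthfd2 fell by 0.64 (SE 0.14, 1.56-fold, adjusted p = 0.0169), with 9.33, 10.39 and 10.70, against 10.11, 10.84 and 11.02. Shmt1 changed by -1.10 (SE 0.35, adjusted p = 0.0784), the largest value of any member, and read 7.28, 8.79 and 9.64 with TGFb, against 7.64, 9.88 and 10.47 without it. All 7 serine and one-carbon genes were lower (median -0.41), Phgdh at -0.40 (adjusted p = 0.144). The 8 stress genes went both ways, from -1.09 for Atf3 to 0.61 for Trib3, and none was called.

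These TGFb calls depended on single arrays to different degrees. Over 16 fits that each left out 1 array, Mthfd2 passed in 15, Psat1 in 12, Farsb in 5 and Rars in 4. Without both doubted arrays Mthfd2 was the 1 call left. In each of the 4 pairs of groups that differ by TGFb, the median synthetase was lower with TGFb by the group means. Within replicate 1 it was not lower in STAT3-deficient cells with IL-6 or in WT cells without it. The medians were -0.28 in STAT3-deficient cells with IL-6 (0.01 in replicate 1, -0.51 in replicate 2) and -0.40 in STAT3-deficient cells without it (-0.52 and -0.21). In WT cells they were -0.47 with IL-6 (-0.65 and -0.23) and -0.22 without it (0.03 and -0.40).

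**Figure D4:**
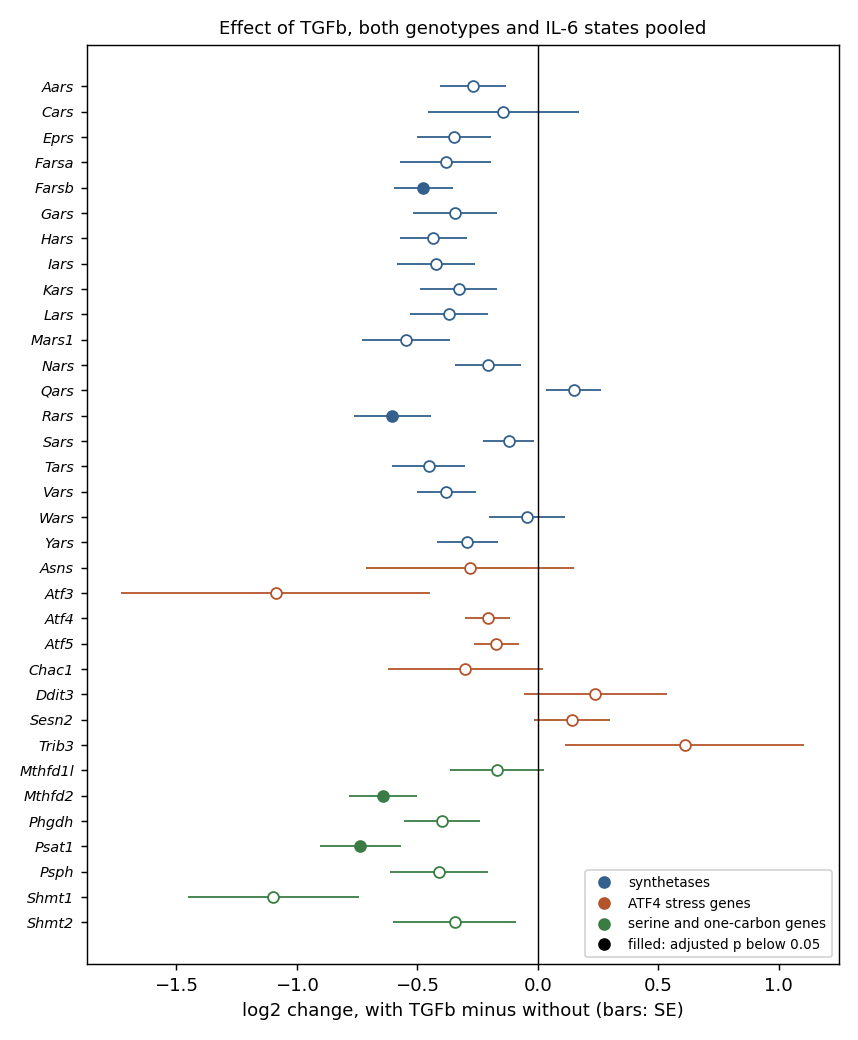
Log2 change with TGFb minus without TGFb for each member, pooled over both genotypes and both IL-6 states (8 arrays per side), with bars of 1 SE, colours for the 3 classes and filled points for an adjusted p below 0.05. Of the synthetases 18 of 19 lie left of 0, and Farsb, Rars, Psat1 and Mthfd2 are filled.

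The other comparisons gave leanings without calls. In WT cells, 17 of 19 were lower under IL-6 with TGFb than in medium, with a median of -0.59, and in STAT3-deficient cells 17 of 19 were lower with a median of -0.35 (-0.33 without both doubted arrays). No synthetase was called in either. In WT cells 7 were lower at an unadjusted p under 0.05, which 7.94% of genes were, and in STAT3-deficient cells 0 had one. Mars1 had the largest change in WT cells (-0.97, SE 0.37, adjusted p = 0.216), with 9.85 and 10.02 under IL-6 with TGFb, against 10.72 and 11.09 in medium. These groups did not overlap. Under IL-6 the median was 0.00 in STAT3-deficient cells (-0.11 without both doubted arrays) and -0.26 in WT cells, where 16 of 19 were lower. Mars1 read 10.67, 10.35, 9.85 and 10.02 on the WT arrays with IL-6, against 10.72, 11.09, 10.51 and 10.42 on those without it (-0.46, adjusted p = 0.52). Lars, the leucine enzyme, read 10.56, 10.07, 9.99 and 9.94, against 10.46, 11, 10.61 and 10.13 (-0.41, adjusted p = 0.52). These 2 were the largest of the class, and both overlapped. Between the genotypes under IL-6 with TGFb, 17 of 19 were higher in STAT3-deficient cells with a median of 0.22 (0.24 without both doubted arrays, 0.12 without STAT3-deficient IL-6 with TGFb replicate 2), and 0 of them had an unadjusted p under 0.05. Over all genes 48.1% were lower there, with a median of 0.01. The count rests on 1 probe set a gene. Eprs was 0.25 by the one used and -0.11, -0.36 and -0.05 by its others, while Aars, Hars and Iars kept their sign.

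The stress genes passed no test of genotype or cytokine. Atf4, the central factor, kept within log2 11.24 and 12.17 on the 16 arrays by the probe set used. With TGFb pooled that probe set changed by -0.21. Its other probe sets changed by -0.56 (mean log2 10.22) and -0.06 (mean log2 5.10), and were not tested on their own. Under IL-6 with TGFb Atf4 read, by the probe set used, 11.67 and 11.44 in STAT3-deficient cells, against 11.48 and 11.24 in WT cells. These groups overlapped. Atf3, an early stress factor, read 7.92 and 8.29 in STAT3-deficient cells, against 7.18 and 6.38 in WT cells, in the same condition (log2 change 1.33, SE 1.28, adjusted p = 0.827). Chac1, which degrades glutathione, read 7.12 and 7.0, against 6.73 and 6.30 (0.54, adjusted p = 0.861). For Atf3 and Chac1 these groups did not overlap, but the SE shared with the other groups was close to or above the differences.

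Adding IL-6 to TGFb gave lower mean values of 6 of 8 stress genes in STAT3-deficient cells, with a median of -0.17, and of all 8 in WT cells, with a median of -0.99. The STAT3-deficient value holds both doubted arrays, which give a median of 0.71 in replicate 1, while in replicate 2 all 8 genes were lower with a median of -1.01. In WT cells the medians were -0.81 and -1.33, with 8 of 8 lower in both. Replicate 2 thus gave lower values in both genotypes, and none of these differences has a test of its own. In STAT3-deficient cells this set 1 array against 1, and the array under TGFb had the highest Stat3 value of that genotype (10.46). In WT cells Asns read 9.11 and 8.55 under IL-6 with TGFb, against 10.60 and 10.47 under TGFb, a difference of -1.70 between means. Chac1 read 6.73 and 6.30, against 8.23 and 8.02 (-1.61). Neither gene's groups overlapped. With IL-6 alone compared with medium in WT cells, the replicate numbers went opposite ways, with 0.64 and -0.36 for Asns and 0.59 and -0.51 for Chac1 in replicates 1 and 2. Over all WT arrays the sides overlapped for both genes, as Chac1 read 6.71 and Asns 8.92 in medium replicate 1. Averaged over TGFb states, Chac1 and Asns had the largest IL-6 effects of the class in WT cells (-0.79 and -0.78), with adjusted p of 0.537 and 0.677.

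Genes around the same pathways were described from lists set together with the members, and their counts stand beside shares over all genes. With TGFb pooled, 5.46% of genes were called higher, beside the 3.79% called lower. Of 17 further ATF4 targets measured, 1 fell in WT cells given IL-6 with TGFb, compared with medium, namely Cth, the cystathionine gamma-lyase of cysteine synthesis (-3.09, SE 0.74, adjusted p = 0.0492). Cth also fell with TGFb pooled (-2.12, SE 0.37, adjusted p = 0.00591), and Nupr1, a stress-induced chromatin protein, rose (2.08, SE 0.35, adjusted p = 0.00525). The rise of Nupr1 lay mostly in cultures without IL-6, with 8.87 to 10.32 under TGFb, against 5.7 to 7.26 in medium. Under IL-6 with TGFb it read 5.95 and 6.27 in WT cells, against 5.81 and 6.6 under IL-6. In STAT3-deficient cells it read 8.68 (a doubted array) and 6.89, against 5.73 and 6.64. Of 15 further one-carbon and folate genes 2 fell with TGFb, Atic (-0.85, adjusted p = 0.00525) and Ppat (-0.68, adjusted p = 0.0429), both of purine synthesis. Of 8 measured eIF2alpha kinases and feedback genes 1 rose with TGFb, Eif2ak3, which encodes PERK (0.64, adjusted p = 0.0457). Its highest value, 11.09, came from the doubted STAT3-deficient TGFb replicate 1, against 8.97 in STAT3-deficient medium replicate 1. The other pairs of arrays with the same replicate number were also higher with TGFb, but by less. Of 11 amino acid transporters none was called in the genotype or cytokine comparisons in limma, and 4 were lower at an unadjusted p under 0.05 with IL-6 in WT cells, as 5.37% of genes were. With the replicate block Slc7a1, a transporter of cationic amino acids, was called higher in STAT3-deficient than in WT cells under IL-6 (0.78, adjusted p = 0.0496, 2.38% of genes called higher). With the block it was also called lower in WT cells under both cytokines relative to medium (-0.86, adjusted p = 0.0475), and Slc6a9, a glycine transporter, was called lower with IL-6 in WT cells (-0.75, adjusted p = 0.0344, 0.823% of genes called lower). Of 13 MYC and mTORC1 regulators Sesn3, a sestrin, was lower in STAT3-deficient than in WT cells under IL-6 (-1.84, SE 0.39, adjusted p = 0.0315), where 2.73% of genes were called lower. It rose with IL-6 in WT cells (1.33, adjusted p = 0.0383), where 1.32% were called higher.

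The replicate numbers gave 6 called members of 34, where 2579 of 13007 genes were called. The share of members called was thus no higher than that of all genes. This comparison was chosen after the data were seen, and takes the replicate number as a term beside the 8 groups. Replicate 2 minus replicate 1 gave 1653 genes higher (12.7%) and 926 lower (7.12%). Trib3 (1.28, SE 0.33, adjusted p = 0.0232), Ddit3 (0.74, adjusted p = 0.0288) and Shmt2 (0.60, adjusted p = 0.0438) were higher in replicate 2. Cars, the cysteine enzyme (-0.90, SE 0.16, adjusted p = 0.00712), Farsa (-0.44, adjusted p = 0.0402) and Kars, the lysine enzyme (-0.37, adjusted p = 0.0419), were lower. Cars read 6.83, 7.44 and 7.86 (lowest, median, highest) over the 8 replicate 2 arrays, against 7.87, 8.16 and 9.06 over the 8 replicate 1 arrays, without overlap. Trib3 read 8.22, 8.85 and 10.15, against 6.63, 7.78 and 9.35, with overlap, and was higher in replicate 2 in 8 of 8 groups. Ddit3 read 8.91, 9.59 and 10.77, against 8.43, 8.88 and 9.69, and was higher in 7 of 8. Shmt2 read 10.52, 11.34 and 11.80, against 10.03, 10.68 and 11.19.

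The synthetases Kars and Farsa overlapped more. Kars read 10.61, 10.86 and 11.19 on replicate 2 arrays, against 10.78, 11.29 and 11.59 on replicate 1 arrays. Farsa read 8.95, 9.56 and 10.00, against 9.73, 9.82 and 10.30, and over the mean of all its probe sets its change was -0.06 (adjusted p = 0.614). Leaving out 1 array at a time, Cars passed in 16 of 16 fits, Trib3 in 12, Ddit3 in 6, Kars and Shmt2 in 4 each and Farsa in 2. Without both doubted arrays Cars and Trib3 were the 2 calls left (adjusted p = 0.0314 for both).

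Further ATF4 targets leaned as most stress genes did here, with medians of 0.67 and 0.70. Of the 8 stress genes 6 were higher in replicate 2 and 2 lower. Atf4 was higher in only 1 of 8 groups and Sesn2 in 2. Of 17 further targets measured 13 were higher and 4 lower. Called higher were 8, beside 12.7% of all genes, and 0 were called lower. Among those called were Vldlr (2.06), Stc2 (1.55), Eif4ebp1, the translation repressor 4E-BP1 (1.54), and Ddit4, an mTORC1 inhibitor (1.15). For Atf3 the contrast was widest in medium, where it read 10.53 in STAT3-deficient and 10.54 in WT cells in replicate 2, against 7.59 and 6.32 in replicate 1. Trib3, Asns and Chac1 differed most in STAT3-deficient cells under TGFb (3.35, 2.82 and 1.98), a group that holds a doubted array. Over all groups Asns differed by 0.98 (adjusted p = 0.0545). Sex-linked genes moved with the replicate numbers, and so did RNA quality: the Actb control probes at the 5′ end read -1.71 to -0.88 relative to those at the 3′ end on replicate 2 arrays, and -0.50 to -0.11 on replicate 1 arrays. With that difference as a covariate, 0 members and 5 genes were called, and Shmt2 turned to -0.41. Sex, RNA quality and any culture or day behind the numbers cannot be told apart.

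**Figure D5:**
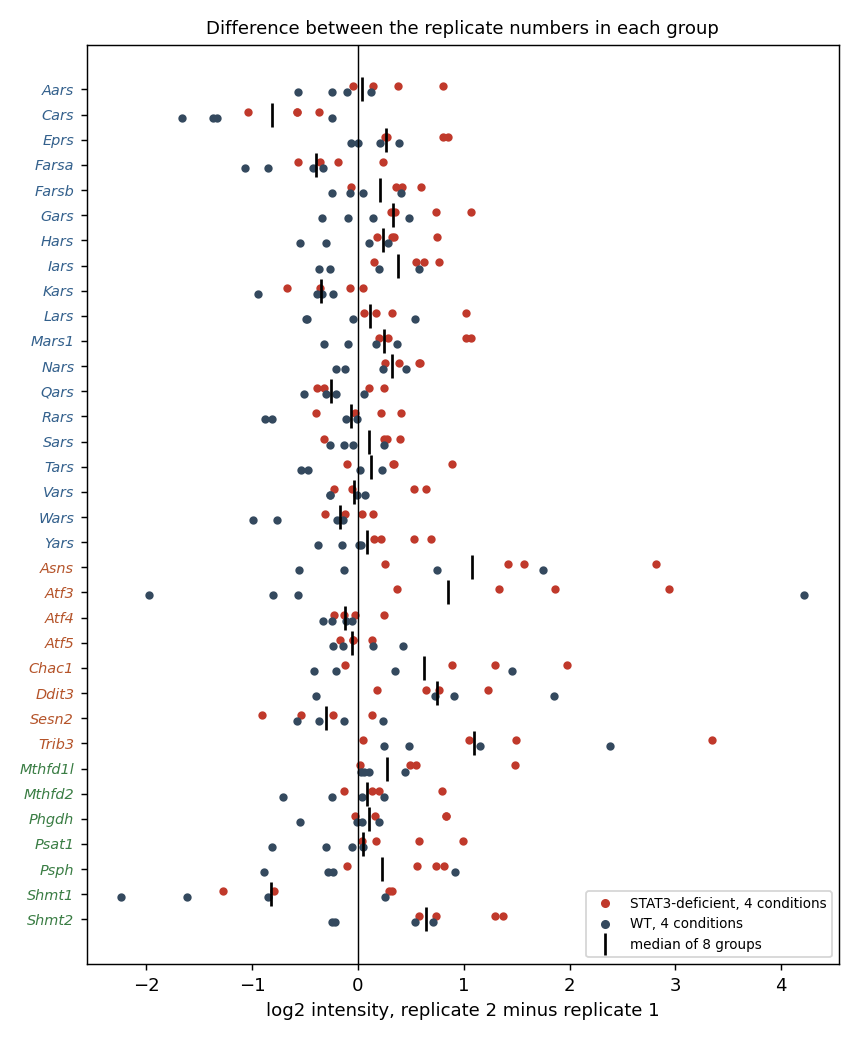
Log2 intensity of replicate 2 minus replicate 1 within each of the 8 groups (points, STAT3-deficient in red and WT in dark blue) for every member, with the median of the 8 groups as a black bar. All 8 Trib3 points lie right of 0 and all 8 Cars points left of it, and Atf3 reaches 4.22 in WT medium.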

How the data were processed

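The deposited table holds intensity values of Affymetrix mouse array probe sets, which the authors made with RMA, a background correction, quantile normalization and probe summary, per the submitters' processing notes. The values are linear whole numbers from 6 to 37243, with array medians of 66 to 73, so they were taken to log2 without a pseudocount, as planned for linear values. The number of arrays, not read depth, limits the precision.

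A gene was read by its brightest probe set with a single symbol in the platform annotation. Genes under log2 6 on all but 1 array were left out. All 13007 genes were fitted in limma 3.58.1 (R 4.3.3) with 8 group means over 16 arrays, and p-values were adjusted by Benjamini-Hochberg over all genes, with a threshold of 0.05. The fits were tested on simulated data with independent noise and no effect of the replicate number. That test could not show how they act where such an effect exists. Figures used matplotlib 3.10.9.

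Deviations of arrays with the same replicate number from their group means correlated at 0.11 to 0.86 (median 0.33) over all 28 pairs of groups. The main fit did not use this pairing and had no term for the replicate number. Only the fits with the replicate block, and the comparison of the replicate numbers, took the numbers to pair the samples. Array values are given for members past the test in any comparison and for the 2 members of each class with the largest genotype average and IL-6 effect in WT cells; other named genes of the lists were called. Members, lists and tests were chosen with earlier results of these data known. Alternatives were another level minimum, quantile normalization, array weights, the mean of all probe sets, the replicate block with and without the Actb difference, and leaving out arrays.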

Additional observations from a re-analysis of the deposited data

How the results depend on the processing

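Counts are members and then all genes called. With the replicate block, genotype under IL-6 with TGFb called 322 genes, genotype under IL-6 called 1 and 1490, the genotype average 697 genes, IL-6 with TGFb against medium 38 genes in STAT3-deficient and 833 in WT cells, the IL-6 effect in WT cells 438 genes, TGFb 7 and 2125, and the interaction 1 and 242. It changed no other member's call than those named above. With the Actb difference added to the block, genotype under IL-6 with TGFb called 242 genes, the interaction 89, and the replicate numbers 0 and 5, with Shmt2 turned to -0.413. With array weights, genotype under IL-6 with TGFb called 2 and 450, genotype under IL-6 23 genes, IL-6 with TGFb against medium 48 genes in STAT3-deficient cells and 5 and 979 in WT cells, and the IL-6 effect in WT cells 2 members. Quantile normalization left 25 genes in the interaction. Without both doubted arrays, genotype under IL-6 with TGFb called 0 and 51, the genotype average 39 genes, IL-6 with TGFb against medium in STAT3-deficient cells 9, TGFb 1 member, the interaction 6 genes, and the replicate numbers 2 and 1130. The causes were not tested. Leaving out 1 array at a time gave 0 to 0 and 26 to 35 for genotype under IL-6 with TGFb, 0 to 0 and 27 to 527 under IL-6, 0 to 0 and 0 to 38 under TGFb, 0 to 0 and 0 to 0 in medium, and 0 to 1 and 27 to 391 for the average. It gave 0 to 0 and 5 to 8 for IL-6 with TGFb against medium in STAT3-deficient cells and 0 to 0 and 87 to 262 in WT cells, 0 to 0 and 0 to 0 for the IL-6 effect in STAT3-deficient cells and 0 to 2 and 70 to 450 in WT cells. It gave 0 to 8 and 665 to 1683 for TGFb, 0 to 1 and 6 to 160 for the interaction, and 1 to 4 and 1397 to 2420 for the replicate numbers. Of the values of 20 single-gene results, 314 kept direction and side of the threshold, 117 lost and 14 gained a call, and 1 reversed.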

Other observations

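Amino acid transporters leaned the same way as the serine genes, with none passing without the replicate block. Of 11 measured, 9 were higher in STAT3-deficient than in WT cells, both given IL-6 and TGFb (median 0.33), and 9 were lower with IL-6 in WT cells (median -0.41). In limma 0 were called, and 2 and 4 had an unadjusted p under 0.05 in these directions, as 3.47% and 5.37% of all genes had. TGFb alone, compared with medium, gave stress gene medians that differed between the replicate numbers. In STAT3-deficient cells the median was -0.33 in replicate 1, which holds the doubted array, and 0.13 in replicate 2. In WT cells it was 1.28 in replicate 1 and -0.03 in replicate 2. The synthetases had medians of -0.52 and -0.21 in STAT3-deficient cells and 0.03 and -0.40 in WT cells, and the serine genes -1.05 and -0.39 in STAT3-deficient cells and 0.04 and -0.51 in WT cells. These differences have no test of their own.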
